A study of Mus musculus with 3 samples.

Results

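Immature neutrophils of mouse bone marrow were taken as the cells that held at least 20 UMIs of Ltf, at least 1 UMI of Ly6g and at most 9 UMIs of Fcnb, where a UMI (unique molecular identifier) stands for 1 captured RNA molecule. The choice was made among cells with at least 200 detected genes and at most 5% of their UMIs from mitochondrial genes. Of 31292 such cells, 1945 met the rule, and the deposited matrices held 36035 barcodes in all. The members were 525 cells of the Control library, 682 of the IR library and 738 of the IR+CBD library. The cells were thus chosen by their UMIs of Ltf, Ly6g and Fcnb, and the levels of these genes are given below as a description only.

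The study asked how cannabidiol (CBD), a compound of the hemp plant, alters the recovery of blood formation after irradiation, and profiled bone marrow nucleated cells (BMNCs) of male C57BL/6 mice (age not given in the sources used here) 14 days after exposure with a droplet assay that reads 3' ends of RNA. Control mice were not irradiated, and whether they received the solvent is not given in the sources used here. IR and Control may thus differ in solvent as well as in radiation. IR mice received 6 Gy of gamma rays and the solvent, soybean oil with 2% DMSO, while IR+CBD mice received the same dose and 4 intraperitoneal injections of CBD at 50 mg/kg, 12 h and 0.5 h before and 12 h and 24 h after exposure. Lin-Kit+, Lin-Kit- and Lin+ cells of 3 mice per group were sorted, combined in the proportion 5:4:1 and loaded as 1 library, so that a share below is a share of this mixture and the marrow composition cannot be read from it. With 1 library for each condition, no difference between conditions could be tested, and mouse, sort and library preparation cannot be told apart from treatment. The 95% intervals in parentheses (Clopper-Pearson for shares, exact Poisson for levels, conditional binomial for ratios) cover counting error only, and UMIs are taken as independent molecules. The IR library served in both comparisons below, as the irradiated sample beside Control and as the reference for IR+CBD, so their values are given side by side and not as separate evidence.

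Neutrophils mature in bone marrow in an ordered sequence that can be read from their granule genes. Promyelocytes fill primary granules with myeloperoxidase and serine proteases, myelocytes and metamyelocytes then fill secondary granules with lactoferrin (Ltf), cathelicidin (Camp) and neutrophilic granule protein (Ngp), and later cells add gelatinase to tertiary granules. Division stops at the myelocyte stage, and the chemokine receptor Cxcr2, which draws cells out of the marrow, comes with the last steps. Fcnb, a ficolin, is high in the early granule-forming cells, whereas Retnlg, a resistin-like protein, builds up in the latest marrow neutrophils.

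The share of immature neutrophils was 4.92% (4.52 to 5.35) in Control, 6.59% (6.12 to 7.09) in IR and 7.18% (6.69 to 7.70) in IR+CBD. The share was 1.34 times as high in IR as in Control (1.19 to 1.505), and the ratio of IR+CBD to IR, 1.09 (0.981 to 1.21), had an interval that held 1. For IR+CBD over Control the ratio was 1.46 (1.30 to 1.64). Neighbouring stages were taken from the same cells. Fcnb-high precursors, with at least 10 Fcnb UMIs, made up 2.10%, 2.13% and 2.53% of Control, IR and IR+CBD cells. Retnlg Cxcr2 neutrophils, with at least 10 Retnlg UMIs and at least 1 Cxcr2 UMI but at most 19 of Ltf and 9 of Fcnb, made up 4.23%, 4.13% and 4.48%. Among the 3 neutrophil classes together, immature neutrophils held 43.8% (40.9 to 46.6) of Control cells, against 51.3% (48.6 to 54.0) for IR and 50.6% (48.0 to 53.2) for IR+CBD. For precursors and Retnlg Cxcr2 neutrophils the IR to Control ratios of the shares were 1.01 (0.837 to 1.23) and 0.977 (0.854 to 1.12), both with intervals that held 1. For IR+CBD over Control they were 1.21 (1.005 to 1.45), with an interval just above 1, and 1.06 (0.929 to 1.21). Other shares of the same mixture, of which only 1 is given here, differed as well: B-lineage cells made up 25.2%, 31.8% and 24.1% of the libraries. Shares of 1 mixture are not independent of each other.

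**Figure D1:**
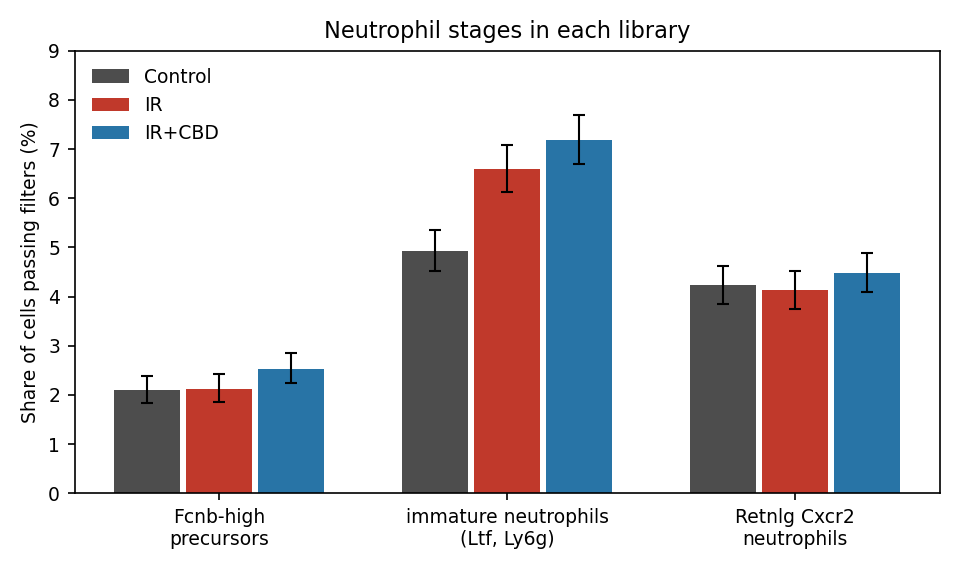
Bars give the share of cells passing both quality filters (vertical axis, percent) that fell into each of 3 neutrophil stages in the Control, IR and IR+CBD libraries, with 95% Clopper-Pearson intervals. Immature neutrophils stood at 4.92%, 6.59% and 7.18%, while the other stages differed between libraries by less.

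The label was checked against markers that the rule did not use. Cd177, a surface protein of neutrophils, was found in 99.6%, 99.9% and 99.2% of Control, IR and IR+CBD members, and Mmp9, the gelatinase of tertiary granules, in 91.2%, 92.4% and 89.6%. In B-lineage cells, which should lack both, Cd177 was found in 2.67%, 2.59% and 2.75% and Mmp9 in 2.89%, 2.92% and 3.04% of cells, at median depths of 4471, 4013.5 and 3541 UMIs against 12170, 12399 and 10696.5 in the members. Every member held Camp, Ngp, Lcn2, S100a8 and S100a9, but presence alone says little for such abundant genes. In B-lineage cells S100a8 was found in 75.5%, 66.1% and 67.4% and Camp in 27.6%, 20.8% and 19.5%. The mean of S100a8 there was 34.7, 29.3 and 36.9 UMIs per cell, against 1920, 1867 and 1736 in the members. Il1b, a cytokine of mature neutrophils, was found in only 3.62%, 3.52% and 4.34% of members, beside 306, 378 and 474 CPM of this gene in the Retnlg Cxcr2 neutrophils and 4.55, 5.56 and 9.36 CPM in the members. Neutrophil UMIs were also seen outside neutrophils: Ltf was found in 7.53%, 6.63% and 6.64% of B-lineage cells at a mean of 1.74, 1.54 and 1.67 UMIs per cell, and 33, 42 and 41 of the 2695, 3288 and 2471 B-lineage cells held at least 20.

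Cells just outside the rule were set beside those just inside it. Cells with 10 to 19 Ltf UMIs that met the rest of the rule numbered 55, 48 and 65 in Control, IR and IR+CBD. Their median Retnlg was 267, 271.5 and 262 UMIs, while members with 20 to 29 Ltf UMIs numbered 36, 31 and 42 and had 163.5, 259 and 233. Median Camp at this edge was 38, 26.5 and 40 UMIs outside the rule against 51, 56 and 71.5 inside it. Cells with 10 to 14 Fcnb UMIs numbered 31, 45 and 46 with median Camp of 950, 948 and 814 UMIs, against 841, 786 and 714 in the 58, 83 and 92 members with 5 to 9 Fcnb UMIs. No Ly6g UMI was seen in 51, 28 and 51 cells that otherwise qualified, and 53, 29 and 47 members had exactly 1. Since Ly6g was counted at medians of 6, 10 and 8 UMIs, this condition also depends on depth.

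Median depth of members was close in Control and IR and lower in IR+CBD, at 12170, 12399 and 10696.5 UMIs. Raw UMIs per cell given below are not scaled for this. Members held 7904021, 10783317 and 10040383 UMIs (in the order Control, IR, IR+CBD), cells had medians of 2343, 2286.5 and 2130 genes, and once each cell was thinned to 3000 UMIs the medians were 951, 928 and 930 genes. Barcodes shared between libraries numbered 35, 41 and 51 for the 3 pairs, and 0 of them were members in both. Scrublet, run in each library with the number removed set from the number of cells, placed 87, 127 and 128 members among the predicted doublets, whose median depth was 29265, 23965 and 22249 UMIs. These cells held 2741605, 3925796 and 3417423 of the members' UMIs in Control, IR and IR+CBD, so a large part of each level below comes from them. They were kept as the rule says, and values without them are given for many of the results that moved. Levels below are CPM, UMIs of a gene per 1000000 UMIs summed over the members of a library.

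In content the cells were dominated by a few secretory genes. S100a8 and S100a9, which form the antimicrobial protein calprotectin, together gave 28.3%, 26.6% and 27.8% of all UMIs in Control, IR and IR+CBD members. A typical cell held 365, 401.5 and 343.5 UMIs of Camp, 380, 404.5 and 348 of Ngp and 192, 222 and 176 of Lcn2, the iron-siderophore binder lipocalin, as medians in the 3 libraries. Median Ltf was 92, 114 and 90 UMIs. The quartiles of Ltf were 56 and 145 UMIs for Control, 76 and 158 for IR, 57 and 122 for IR+CBD, so cells of 1 library spread far more widely than the medians of the libraries.

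Of 9674 genes with at least 100 UMIs over the members of all libraries, 564 (5.83%) had a CPM at least 1.5-fold higher in IR than in Control and 295 (3.05%) at least 1.5-fold lower. For IR+CBD over IR, 142 genes (1.47%) were higher and 234 (2.42%) lower by this measure, and for IR+CBD over Control 397 (4.10%) were higher and 258 (2.67%) lower. The median log2 ratio over all these genes was 0.01, -0.02 and -0.01. Fewer genes could be measured without predicted doublets: 202 of the 564 genes were still measured and 156 of them were past 1.5-fold, as were 68 of 123 of the 295 genes, 39 of 51 of the 142 genes and 86 of 101 of the 234 genes. Gene lists are read against these shares below.

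The granule program was almost level across the libraries. Of 19 secondary granule genes measured, 0 were higher by 1.5-fold and 1 was lower in IR than in Control, with a median log2 ratio of 0.07, and in IR+CBD over IR 0 were higher, 0 lower and the median was -0.06. Camp stood at 28399, 28511 and 29027 CPM in Control, IR and IR+CBD, with ratios of 1.00 (0.998 to 1.01) and 1.02 (1.01 to 1.02). Ngp stood at 28329, 27821 and 27385 CPM, Lcn2 at 14419, 15083 and 14476 CPM and Ltf, which the rule used, at 7083, 7637 and 6817 CPM. The gene that was lower was Olfm4, a secondary granule protein made by only some neutrophils, at 190, 96.1 and 102 CPM, 0.505 times as high in IR as in Control (0.466 to 0.546). Cells with Olfm4 made up 7.43% (5.34 to 10.0) in Control, against 3.37% (2.15 to 5.02) for IR and 4.34% (2.98 to 6.07) for IR+CBD, and without predicted doublets its levels were 205, 119 and 138 CPM. Lyz2, lysozyme, was higher in IR but short of 1.5-fold, at 7479, 10318 and 9430 CPM, with ratios of 1.38 (1.37 to 1.39) and 0.914 (0.906 to 0.922).

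Tertiary granule genes gave the same picture, with 0 of 14 past 1.5-fold in either direction in either comparison and medians of 0.02 and -0.01. Mmp9 stood at 880, 961 and 859 CPM and Pglyrp1, a bacterial cell wall binding protein, at 2634, 2617 and 2572 CPM in Control, IR and IR+CBD. Padi4, the enzyme that citrullinates histones when neutrophils release chromatin, stood at 119, 127 and 127 CPM. Retnlg, also in this list, differed by no more than 1.21-fold between any pair of libraries, at 5958, 6430 and 7192 CPM. The 7 subunit genes of the NADPH oxidase, which makes superoxide for killing microbes, had 0 past 1.5-fold in either comparison and medians of 0.01 and -0.04, and its membrane subunits Cybb and Cyba stood at 1106, 1223 and 1088 CPM and at 1789, 1559 and 1593 CPM.

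Primary granule genes could not be read apart from doublets. Over all members Mpo, myeloperoxidase, stood at 748, 573 and 644 CPM in Control, IR and IR+CBD, Elane, neutrophil elastase, at 613, 446 and 583 CPM, and Prtn3, proteinase 3, at 1187, 876 and 1051 CPM. For the 9 genes of the list 0 were past 1.5-fold in either comparison, and the medians were -0.44 for IR over Control and 0.26 for IR+CBD over IR. Without predicted doublets the same genes were far lower and their order was turned around: Mpo stood at 75.7, 191 and 127 CPM, Elane at 55.8, 219 and 88.5 CPM and Prtn3 at 143, 387 and 198 CPM. Of the 9 genes 6 were then higher in IR than in Control (background 6.02% of 7241 genes) and 4 lower in IR+CBD than in IR (2.31%), with medians of 1.33 and -0.54. Still without them, Elane stood at 48.2, 21.7 and 42.9 CPM in members with 0 to 9 Retnlg UMIs. With 10 to 49 it stood at 60.9, 316 and 248 CPM, and with 50 or more at 57.7, 293 and 44.5 CPM. Mpo stood at 74.0, 49.7 and 88.6 CPM, at 83.6, 343 and 335 CPM and at 72.7, 196 and 54.7 CPM in these ranges. For both genes IR was the lowest library at 0 to 9 and the highest in the other ranges. In all members the 10 cells richest in Elane held 55.4%, 54.5% and 46.3% of its UMIs.

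Genes of the last maturation steps were also near level, with exceptions. Of 19 measured genes 1 was higher and 2 lower in IR than in Control (median -0.09), and 1 was higher and 0 lower in IR+CBD than in IR (median 0.04). The lower genes were the paired interferon-induced transmembrane genes Ifitm1, at 237, 102 and 124 CPM in Control, IR and IR+CBD, and Ifitm2, at 1307, 861 and 943 CPM. Their IR to Control ratios were 0.431 (0.399 to 0.464) and 0.659 (0.641 to 0.678), and IR+CBD lay close to IR for both. Without predicted doublets Ifitm1 stood at 122, 75.4 and 100.3 CPM and Ifitm2 at 1581, 1023 and 1100 CPM. Ccl6, a chemokine of myeloid cells, was the higher gene in IR, at 15.4, 23.2 and 17.8 CPM, and Il1b the higher gene in IR+CBD over IR, at 4.55, 5.56 and 9.36 CPM. Cxcr2 differed little, at 171, 161 and 157 CPM, as did Csf3r, the receptor for the granulocyte growth factor, at 101, 93.6 and 97.5 CPM. Il1r2, the decoy receptor for interleukin 1, was lower in both irradiated libraries at 414, 309 and 275 CPM, and IR+CBD over Control was 0.664.

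**Figure D2:**
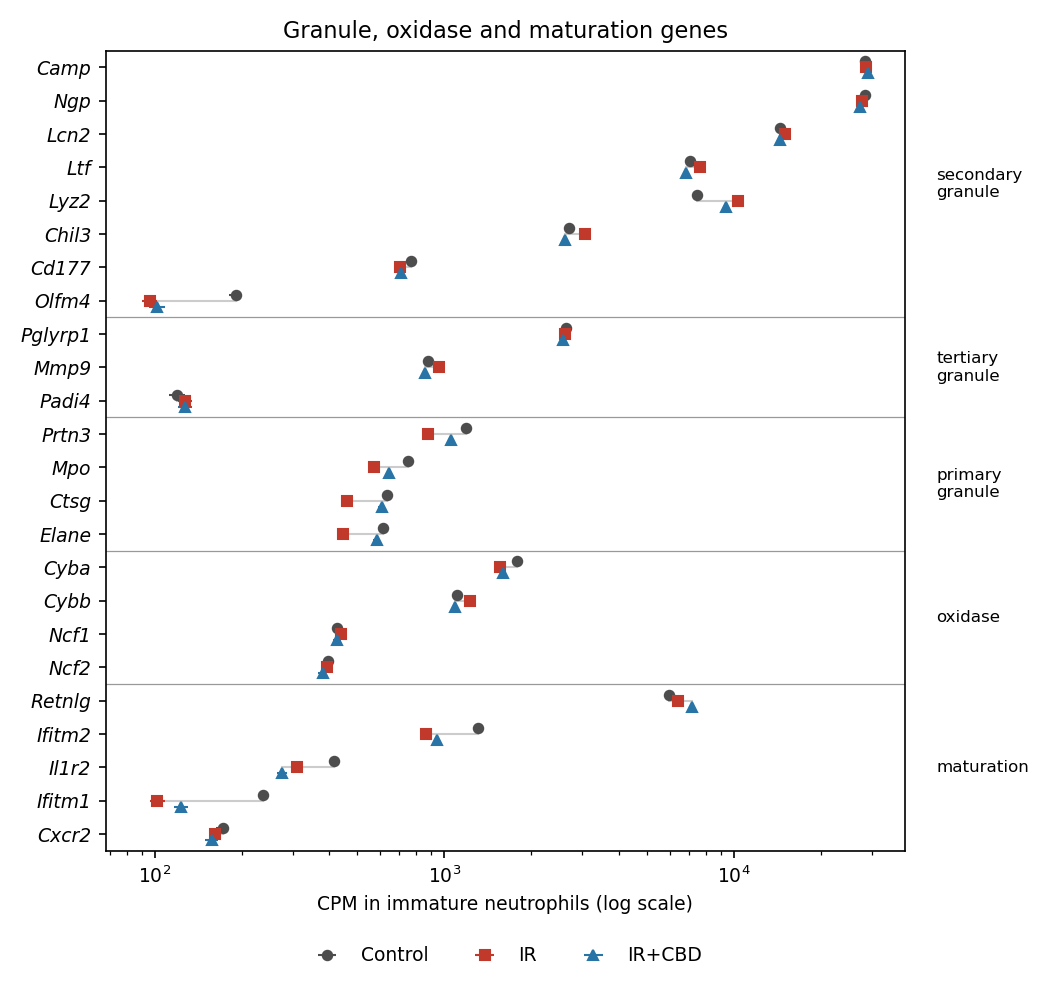
Each row is a gene of the granule, oxidase or maturation lists, and symbols give its CPM over immature neutrophils (horizontal axis, log scale) in Control, IR and IR+CBD with Poisson 95% intervals, mostly narrower than the symbol. Symbols nearly coincide for Camp, Ngp and Pglyrp1, and Olfm4 and Ifitm1 lie to the right in Control at 190 and 237 CPM.

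The members themselves spanned a path from early to late cells, which Retnlg laid out. Cells with 0 to 9, 10 to 49 and 50 or more Retnlg UMIs made up 27.6%, 24.6% and 47.8% of Control members, 26.7%, 24.8% and 48.5% of IR members and 27.8%, 22% and 50.3% of IR+CBD members, so the libraries divided in nearly the same way. Along these ranges Camp was lower in Control, from 35349 to 32948 to 20472 CPM, and Chil3, a chitinase-like secondary granule protein, from 4240 to 3039 to 1354 CPM. Cebpe, the transcription factor of the secondary granule program, went from 353 to 236 to 118 CPM in Control, and the division marker Mki67 from 212 to 104 to 42.8 CPM. Other genes ran the other way. In Control Mmp8, neutrophil collagenase, went from 78.4 to 391 to 1445 CPM. Mmp9 went from 309 to 715 to 1407 CPM and Cxcr2 from 63.0 to 119 to 284 CPM. The IR and IR+CBD members gave the same order for these genes, with Mmp8 at 99.7, 460 and 1489 CPM in IR and at 96.7, 477 and 1329 CPM in IR+CBD, except that Mki67 in IR stood at 176, 53.9 and 61.3 CPM. Without predicted doublets Mki67 went down along the ranges in IR too, at 189, 26.2 and 8.90 CPM, beside 235, 25 and 17.4 CPM in Control. Ltf, on which the rule rests, had 6408, 7792 and 7166 CPM along the ranges in Control.

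Single cells gave the same description. With predicted doublets left out and every cell thinned to 3000 UMIs, Spearman's rho of Camp with Retnlg was -0.762 over 431 Control cells, -0.716 over 552 IR cells and -0.747 over 608 IR+CBD cells, and that of Mmp8 with Retnlg was 0.773, 0.748 and 0.736. Cells of a library share that library and their thinned depth, so these values describe the spread within each library and carry no test. Traces of division were seen at like shares: Mki67 was found in 28.2%, 26.8% and 28.5% of members, and in 12.2%, 11.2% and 12.8% after thinning to 3000 UMIs, which left out 7, 3 and 2 shallower cells. Of 36 genes of the G2 and M phases 0 were past 1.5-fold in either comparison, with medians of -0.25 and 0.09.

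**Figure D3:**
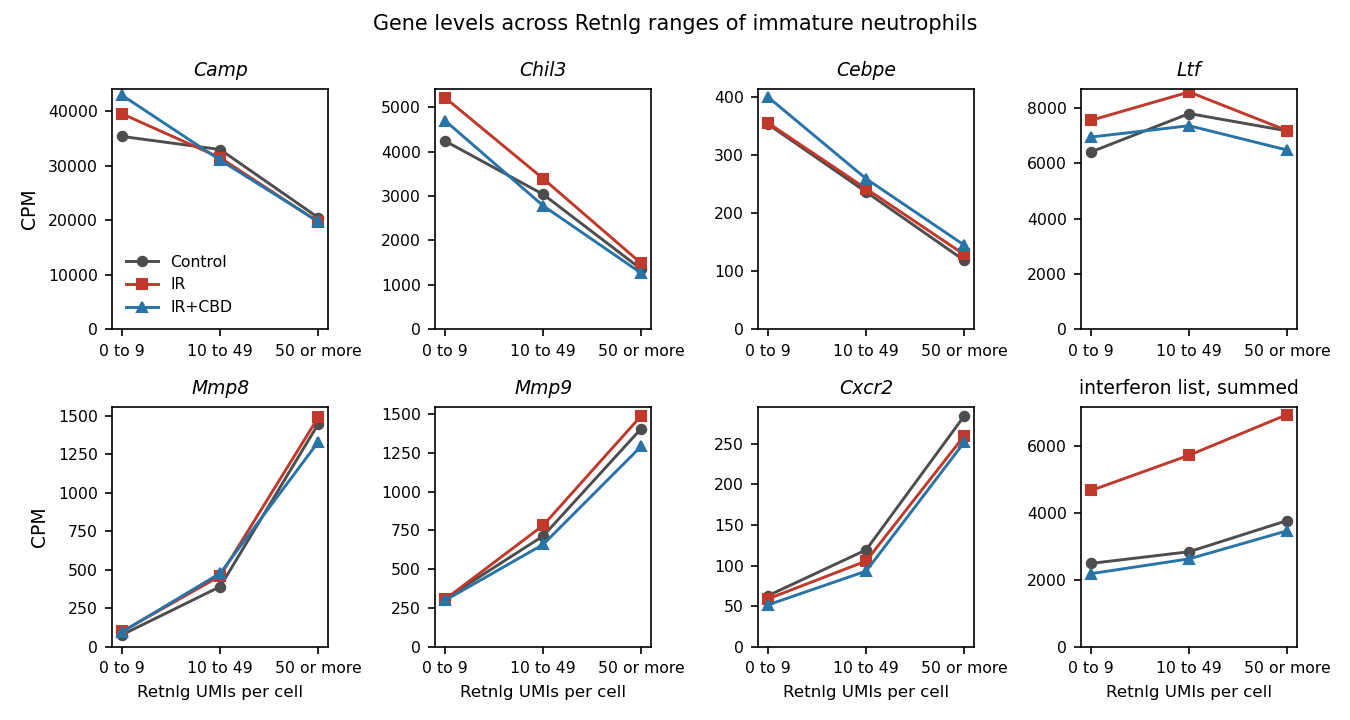
Panels show CPM (vertical axes, starting at 0) of 7 genes and of the summed interferon list in immature neutrophils with 0 to 9, 10 to 49 and 50 or more Retnlg UMIs (horizontal axes), with a line per library. Camp, Chil3 and Cebpe are lower and Mmp8, Mmp9 and Cxcr2 higher toward the right in each library, and in the interferon panel the IR line lies above Control and IR+CBD throughout.

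Interferon response genes stood apart in the IR members. Type I interferons signal through receptor kinases to transcription factors that bind a DNA element named ISRE before genes whose products block viral replication and raise antigen presentation. Of 57 interferon response genes measured (72 in the list), 49 were at least 1.5-fold higher in IR than in Control and 0 lower, with a median log2 ratio of 1.30 beside 0.01 over all genes. In IR+CBD over IR 0 were higher and 48 lower, with a median of -1.02, and in IR+CBD over Control 7 were higher and 2 lower, with a median of 0.11. Without predicted doublets 44 of 48 were higher in IR than in Control (background 6.02% of 7241 genes) and 43 of 48 lower in IR+CBD than in IR (2.31%). Genes that interferon can induce but that stand outside the list did not all follow it. Over all members the chemokine gene Cxcl10 had 18.2, 10.9 and 28.5 CPM in Control, IR and IR+CBD. Its IR+CBD to IR ratio was 2.63 (2.11 to 3.28). Ifitm1 and Ifitm2, given above, were also lower in IR than in Control.

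Ifi27l2a, an interferon-inducible mitochondrial protein, had 525 CPM in IR, against 47.3 CPM in Control and 39.1 CPM in IR+CBD. IR was at 11.1 times the Control level (10.0 to 12.4), and IR+CBD at 0.0745 times the IR level (0.0671 to 0.0825). It was found in 18.1%, 66.9% and 15.4% of members, and in 9.07%, 49.9% and 7.34% after thinning. The difference was thus spread over many IR cells, and the 10 richest of them held 11.2% of the UMIs. Rtp4, a chaperone of receptors that interferon induces, had 9.49, 95.8 and 9.56 CPM and was found in 9.71%, 66.6% and 8.81% of members. Oasl2, a relative of the enzymes that sense double-stranded RNA, had 4.93, 56.2 and 6.87 CPM. Ifit1, which binds foreign RNA ends, had 1.14, 28.6 and 3.09 CPM, with ratios of 25.1 (13 to 55.4) and 0.108 (0.0722 to 0.157), and its Control value rested on 9 UMIs. In IR+CBD a single cell held 18 of the 31 Ifit1 UMIs. Oas1g, of the same sensor family and with near-identical relatives between which reads could be divided, had 1.14, 8.44 and 0.498 CPM. More abundant members of the list differed by less: Ifitm3, which restricts virus entry, had 1411, 2139 and 1167 CPM, Slfn4, a schlafen gene of myeloid cells, had 205, 331 and 198 CPM, and Ly6e had 161, 210 and 129 CPM, or 29.6, 75 and 37.0 CPM without predicted doublets.

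**Figure D4:**
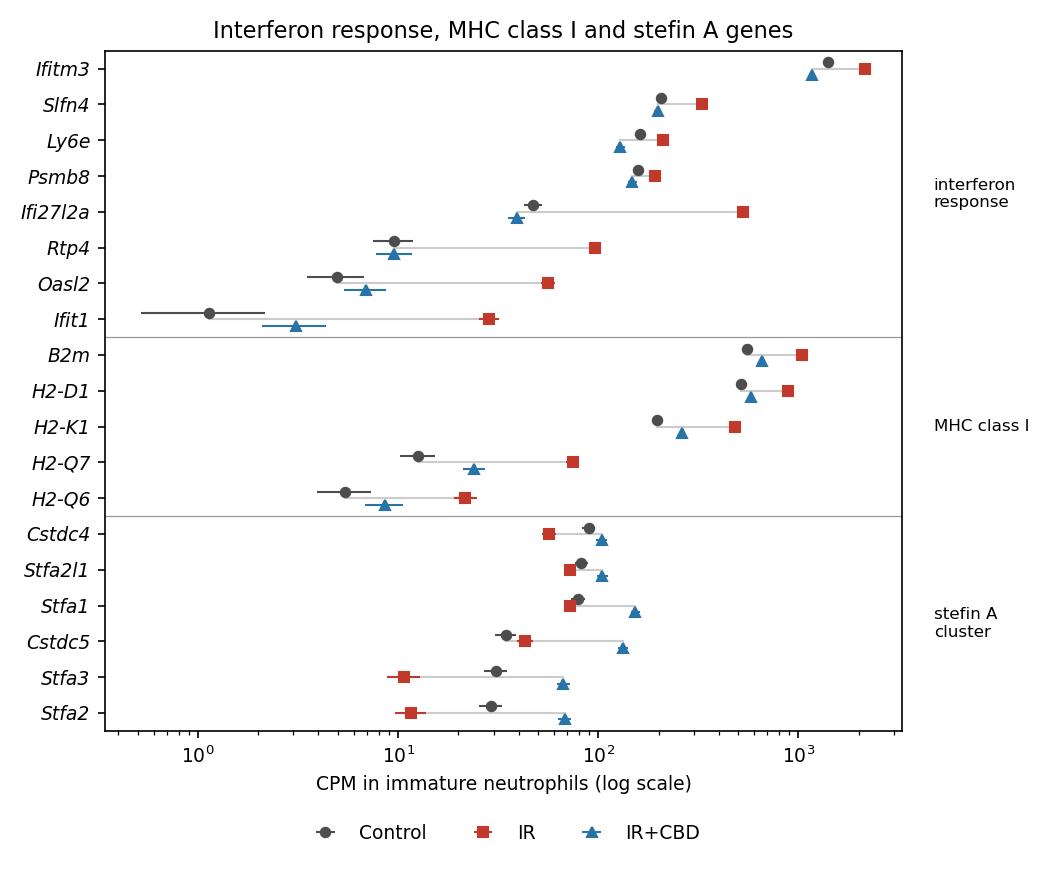
Symbols give CPM over immature neutrophils (horizontal axis, log scale) in Control, IR and IR+CBD with Poisson 95% intervals for genes of the interferon response, MHC class I and stefin A lists. The IR symbol lies to the right of the other symbols in every interferon and MHC row, from Ifitm3 at 2139 CPM to H2-Q6 at 21.7 CPM, and IR+CBD lies to the right in the stefin rows.

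The ISRE letters searched were GAAA, any pair of bases (NN) and GAAA again, on either strand, which leave out variants of the element, in RefSeq windows of 300 bases from 250 before to 50 after annotated starts (build GRCm38.p6). Of 45 measured interferon genes with a window, 24 (53.3%) held a match, beside 294 of 7573 (3.88%) of all measured genes and 1079 of 27025 (3.99%) of all genes with a window. The list was chosen as genes that interferon induces, so its high share of matches is a description and no test. Among interferon genes with a window, the letters were held by 22 of the 38 past 1.5-fold higher in IR and by 2 of the 7 others. They were also held by 5 of 20 MHC class I genes and by 1 of 16 secondary granule genes. Overlapping matches in a window were counted as separate matches but as 1 gene. The 250 bases before the start of 4 genes are shown, 5' to 3' on the gene's strand with matches in capitals, to set genes with a proximal match (Ifit1, Oas1g, B2m) beside Oasl2, which was 11.4 times as high in IR as in Control but had no match in its window. The window of Ifit1 (chr19:34640639-34640888, plus strand) held matches on the opposite strand at positions -104 and -85, counted from the start as 0. That of Oas1g (chr5:120887614-120887863, minus strand) held overlapping matches at -18 and -12, that of B2m (chr2:122147437-122147686, plus strand) held 1 at -139, and Oasl2 lies at chr5:114896684-114896933 on the plus strand. In Ifitm3 both matches lay after the start, at 2 and 19. A match is a stretch of letters and no binding was measured here.
Ifit1: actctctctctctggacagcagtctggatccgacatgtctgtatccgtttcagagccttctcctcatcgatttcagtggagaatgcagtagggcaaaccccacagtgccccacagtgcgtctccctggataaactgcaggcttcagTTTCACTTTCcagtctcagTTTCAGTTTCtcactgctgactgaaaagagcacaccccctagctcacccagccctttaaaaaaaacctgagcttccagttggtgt
Oas1g: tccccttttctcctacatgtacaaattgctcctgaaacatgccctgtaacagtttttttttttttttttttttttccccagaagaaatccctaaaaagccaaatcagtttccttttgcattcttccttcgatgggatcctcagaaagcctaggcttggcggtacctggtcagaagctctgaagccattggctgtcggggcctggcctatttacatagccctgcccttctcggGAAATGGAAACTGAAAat
B2m: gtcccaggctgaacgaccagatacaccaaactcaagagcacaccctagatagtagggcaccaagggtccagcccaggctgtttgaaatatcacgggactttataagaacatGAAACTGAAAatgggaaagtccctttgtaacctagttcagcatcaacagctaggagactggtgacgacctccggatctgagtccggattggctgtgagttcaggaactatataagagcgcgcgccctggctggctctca
Oasl2: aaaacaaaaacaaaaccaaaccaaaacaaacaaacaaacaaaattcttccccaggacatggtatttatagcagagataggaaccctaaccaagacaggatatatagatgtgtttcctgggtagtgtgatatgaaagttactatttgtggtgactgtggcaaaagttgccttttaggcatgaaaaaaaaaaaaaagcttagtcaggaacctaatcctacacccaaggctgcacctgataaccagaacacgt

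Genes of MHC class I, which show peptides to T cells, followed the same order. Of 24 measured genes 11 were higher and 0 lower in IR than in Control (median 0.57), and 0 were higher and 10 lower in IR+CBD than in IR (median -0.45). B2m, the shared light chain, had 551, 1047 and 654 CPM in Control, IR and IR+CBD, with ratios of 1.90 (1.83 to 1.97) and 0.625 (0.606 to 0.644). The heavy chain gene H2-K1 had 197, 482 and 262 CPM and H2-D1 had 517, 889 and 580 CPM. H2-Q7, a nonclassical heavy chain whose reads may be shared with near-identical Q region genes, had 12.5, 74.4 and 24 CPM. Chaperones of peptide loading did not share the order: Calr, calreticulin, had 402, 290 and 322 CPM, and Pdia3 had 214, 174 and 166 CPM. After thinning, H2-K1 was found in 27.0%, 63.6% and 38.6% of members. Part of these UMIs lay in predicted doublets, without which H2-K1 had 89.7, 369 and 153 CPM, H2-Q7 had 2.91, 40.1 and 5.44 CPM and B2m had 490, 966 and 568 CPM, in the same order of libraries.

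When the UMIs of all interferon list genes were added up in each cell thinned to 3000 UMIs, the median was 19 UMIs in IR members, against 9 in Control and 8 in IR+CBD, with quartiles of 13 and 25, 6 and 12, and 5 and 12. Above the Control median lay 89.7% of IR members, against 44.2% of Control and 40.1% of IR+CBD members. The distribution of IR members as a whole was thus displaced. In Fcnb-high precursors 48.7%, 80.0% and 36.9% of cells lay above their own Control median of 5 UMIs, and in Retnlg Cxcr2 neutrophils 46.4%, 93.8% and 50.6% lay above theirs of 12. By counts of genes, 31 of 44 list genes were higher and 1 lower in IR than in Control in precursors (background 2.04% higher and 7.36% lower of 8277 genes), and 50 of 57 were higher and 0 lower in Retnlg Cxcr2 neutrophils (5.85% and 3.88% of 8357 genes). In IR+CBD over IR 0 list genes were higher in either stage, while 31 of 44 were lower in precursors (background 4.08% higher and 1.78% lower) and 48 of 57 in Retnlg Cxcr2 neutrophils (2.01% and 7.48%). For Ifi27l2a the levels were 16.4, 84.7 and 12.7 CPM in precursors and 181, 1776 and 187 CPM in Retnlg Cxcr2 neutrophils, so its level in every library was higher at later stages. Within the immature neutrophils the same held along Retnlg, with Ifi27l2a at 14.7, 33.8 and 79.9 CPM in Control and at 319, 375 and 745 CPM in IR. Whether the IR to Control ratio differs between stages was not tested.

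**Figure D5:**
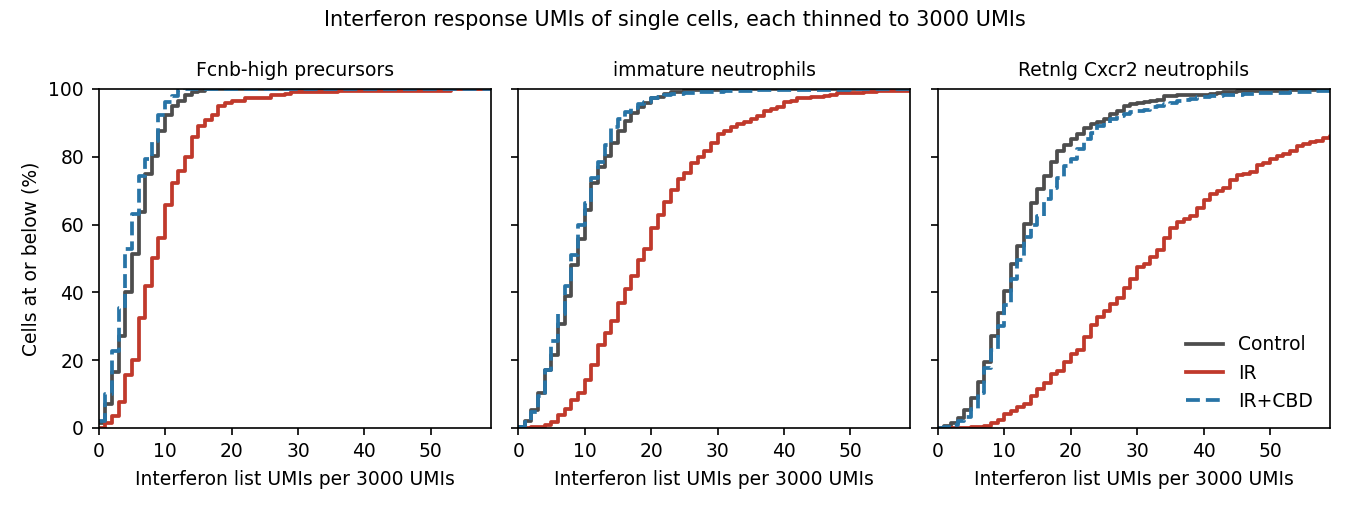
Curves give the percentage of cells (vertical axis) at or below a given number of interferon list UMIs (horizontal axis) after thinning each cell to 3000 UMIs, with a panel per neutrophil stage and a line per library. In immature neutrophils the IR curve lies to the right, with a median of 19 UMIs against 9 in Control and 8 in IR+CBD.

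The stefin A genes, which encode inhibitors of cysteine cathepsins and lie side by side on chromosome 16, gave the opposite contrast between the irradiated libraries. Of 11 genes in the list 6 were measured, and Csta1, Csta2, Csta3, Cstdc3 and Cstdc6 had too few UMIs. In IR+CBD over IR 5 of the 6 were at least 1.5-fold higher and 0 lower, with a median log2 ratio of 1.35. In IR over Control 0 were higher and 3 lower, with a median of -0.43 that turned to 0.09 when the rule was applied to cells thinned to 5000 UMIs. Stfa2 had 29, 11.6 and 68.1 CPM in Control, IR and IR+CBD, with ratios of 0.400 (0.319 to 0.50) and 5.88 (4.85 to 7.17). Stfa3 had 30.7, 10.7 and 66.8 CPM and Cstdc5 had 34.4, 42.9 and 133 CPM. Stfa1 had 78.9, 72.5 and 153 CPM, Cstdc4 had 89.6, 56.6 and 104 CPM, and Stfa2l1 had 82.4, 72.3 and 105 CPM. The genes are near-identical in places, so reads could be divided between them, and their summed level was 348, 269 and 636 CPM. In Retnlg Cxcr2 neutrophils the sum was higher, at 1374, 1662 and 2772 CPM. IR+CBD was the highest library there too, at 1.67 times IR (1.62 to 1.72). The sum in IR over Control was 1.21 there (1.17 to 1.25), beside 0.77 (0.73 to 0.81) in the members.

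These UMIs sat in few cells. Stfa2 was found in 29, 27 and 38 members of Control, IR and IR+CBD, and 10 cells held 84.7%, 82.4% and 77.8% of its UMIs. At least 30 stefin UMIs were held by 21 Control cells (4.00%, 2.49 to 6.05), 20 IR cells (2.93%, 1.8 to 4.49) and 39 IR+CBD cells (5.28%, 3.78 to 7.15), and these cells held 64.5%, 61.3% and 79.1% of all stefin UMIs. Their median Retnlg was 270, 264.5 and 180 UMIs against 41, 44 and 46 in the other members, so they belonged to the late end of the class. In the other members the summed level was 129, 108 and 141 CPM. After thinning, 23.4%, 20.2% and 21.9% of members held any stefin UMI, beside 36.4%, 32.8% and 34.0% before thinning. Without predicted doublets 6 of 6 genes were higher in IR+CBD than in IR (background 2.20% of genes), with a median of 0.91, and 2 were lower in IR than in Control (2.10%).

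Slc15a2, a peptide transporter whose gene lies beside the stefin A cluster, was low throughout, with 1.67 CPM in IR against 7.84 CPM in Control and 7.67 CPM in IR+CBD. IR was at 0.213 times the Control level (0.118 to 0.364), and IR+CBD at 4.59 times the IR level (2.72 to 8.16). It was found in 46 of 525, 14 of 682 and 58 of 738 members with at most 4 UMIs in a cell, and its 10 richest cells held 37.1%, 77.8% and 32.5% of its UMIs. IR was also the lowest library in precursors, at 4.39, 0.820 and 5.12 CPM, and in Retnlg Cxcr2 neutrophils, at 13.7, 1.31 and 13 CPM. Cd86, the gene between Stfa3 and Slc15a2 among the measured genes in annotation order, had 19.2, 9.64 and 14.1 CPM, and Eaf2 on the far side had 5.31, 6.03 and 4.28 CPM. These neighbours were picked after the values were seen. The transporters Slc15a3 and Slc15a4, from the same family, had 17.5, 23.9 and 21.8 CPM and 10.6, 9.74 and 8.86 CPM.

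Some of the other genes at or near the ends of the comparisons are given here, and the rest are not printed. Wfdc17, a small secreted protein of activated myeloid cells, had 109, 42.2 and 84.4 CPM in Control, IR and IR+CBD and was found in 32.8%, 20.7% and 21.3% of members, with ratios of 0.386 (0.344 to 0.433) and 2.0 (1.78 to 2.25). In Retnlg Cxcr2 neutrophils it had 1528, 1032 and 1523 CPM. Immediate early genes, which respond within minutes to stress and to handling of cells, had 0 higher and 4 lower of 34 in IR over Control (median -0.14) and 2 higher and 1 lower in IR+CBD over IR (median 0.17). The higher genes were Rhob, a small GTPase, at 63.9, 68.2 and 117 CPM, and Fosb, an AP-1 subunit, at 21.1, 9.83 and 28.3 CPM. For Fosb the order of Control and IR was turned around without predicted doublets, at 5.04, 5.98 and 21.0 CPM. Jun, the partner of Fosb, had 280, 281 and 421 CPM, a ratio of 1.497 (1.43 to 1.57) for IR+CBD over IR that stayed just short of the limit, and 155, 243 and 400.3 CPM without predicted doublets. The part of cell handling in these values was not tested.

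Most genes tied to radiation damage differed little on day 14. Of 20 measured genes of the p53 response 1 was higher and 1 lower in IR than in Control, with a median log2 ratio of 0.08, and 0 were higher or lower in IR+CBD than in IR. The higher gene was Pmaip1, which promotes apoptosis, at 6.07, 12.2 and 13.7 CPM, and without predicted doublets it had 2.13, 8.46 and 11.02 CPM, with an IR to Control ratio of 3.97 (2.06 to 8.39) and an IR+CBD to Control ratio of 5.17 (2.73 to 10.8). Of the 16 p53 genes measured without predicted doublets 2 were higher and 1 lower in IR than in Control. Cdkn1a, the cell cycle inhibitor p21, had 28.2, 12.3 and 17.8 CPM. Mdm2, the ligase that degrades p53, had 97.0, 97.9 and 86.9 CPM, and Bax had 43.9, 56.8 and 47.0 CPM. Energy and biosynthesis genes were level by this measure: in IR over Control 1 of 24 glycolysis genes was higher and 0 lower (median 0.0), 2 of 87 oxidative phosphorylation genes were higher and 1 lower (median 0.08), and 1 of 78 ribosomal protein genes was higher and 0 lower (median 0.11). In IR+CBD over IR 0 genes of these 3 lists were past 1.5-fold. Much of the ribosomal protein level lay in predicted doublets. Its sum was 75255, 80396 and 80243 CPM over all members, and 29029, 33111 and 34109 CPM without them. The IR to Control ratio of this sum was 1.07 over all members and 1.14 (1.13 to 1.15) without predicted doublets. The antioxidant list had 4 of 26 genes higher and 0 lower in IR over Control (median 0.13), among them Prdx2, a peroxiredoxin abundant in red cells, at 121, 262 and 224 CPM, which was 22.7, 46.8 and 48.6 CPM without predicted doublets.

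Markers of other lineages moved with the libraries and touch the counts above. Hbb-bs, the beta globin of red cells, had 39.9, 2470 and 1877 CPM in Control, IR and IR+CBD and was found in 4.38%, 19.6% and 13% of members, but at least 5 of its UMIs were held by only 2, 45 and 28 cells. Without predicted doublets Hbb-bs had 6.39, 416 and 456 CPM, and a single cell held 731 of the 2850 UMIs in IR and 1280 of the 3019 in IR+CBD. The 10 B cell markers summed to 517, 603 and 525 CPM, and to 51.3, 66.5 and 121 CPM without predicted doublets, while the 10 monocyte markers summed to 193, 161 and 109 CPM and to 38.9, 48.4 and 30.2 CPM. Of the 799 UMIs behind the 121 CPM, 376 were held by 1 IR+CBD cell. The 10 dendritic cell markers summed to 125, 174 and 115 CPM, and to 15.5, 87.2 and 27.3 CPM without predicted doublets, in the order of the interferon list. Of the 598 UMIs behind the 87.2 CPM, 200 were held by 1 IR cell. Bst2, which tethers virus particles to the cell and stands in both lists, made up 60.2 of these 87.2 CPM in IR, beside 7.36 CPM in Control and 12.2 CPM in IR+CBD. Over all members, genes at 0 in at least 1 library were found in the lists of T and NK, eosinophil and basophil, megakaryocyte and dendritic cells, and none in the B cell and monocyte lists. Without predicted doublets 1 B cell marker and 1 monocyte marker were at 0 in Control. Igha and Igkc, the antibody chains of plasma cells, had 0.506, 174 and 5.18 CPM and 77.6, 710 and 113 CPM, and 1 IR cell held 1846 of the 1871 Igha UMIs and 6694 of the 7654 Igkc UMIs. The part of these other-lineage UMIs in the remaining differences was not tested beyond the values without predicted doublets. Without those cells the interferon list sum was 3246, 6419 and 2987 CPM, beside 3132, 5971 and 2908 CPM with them.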

How the data were processed

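The authors deposited 3 matrices of UMI counts, 1 per library, with barcodes already filtered by Cell Ranger (version 7.0.1 in the matrix headers and 4.0 in the submitters' notes). Per the labels the reads were aligned to GRCm39. The deposited counts were used without normalization or batch integration, and each matrix listed 56980 genes, 37 of them mitochondrial. The Control, IR and IR+CBD matrices held 199383228, 206932522 and 177806843 UMIs.

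Counts were summed over the members of each library and divided by their total to give CPM. Ratios of CPM have conditional binomial intervals, shares Clopper-Pearson intervals and levels Poisson intervals, at 95%. Their code was run on simulated independent counts, drawn from the models that the intervals assume. Those counts had no clustering of UMIs in cells, so the run cannot show how well the intervals cover in these data. Genes with at least 100 UMIs over the members of the 3 libraries were measured, and 1.5-fold was taken as the size worth counting, with no test since each condition had 1 library. Near-identical genes (stefin A, Oas1, H2-Q, globin genes) may divide reads. B-lineage cells were those with at least 5 Cd79a UMIs and 1 Cd79b UMI. The share of erythroid cells and their marker list are not reported here. Scrublet in scanpy 1.11.5 scored doublets in each library, and the highest scores, 0.8% for each 1000 cells, were taken as predicted doublets. Cells were thinned by drawing UMIs without replacement.

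The members and the 34 gene lists (758 genes matched) were chosen with earlier results of these data known. Genes were named by rule. The rule took all genes of the granule, maturation, stefin A and peptide transporter lists, and the most abundant and most different genes of other lists. It also took the 10 highest and 10 lowest genes of each comparison by the interval bound nearest 1, and the 10 most abundant genes. Only some of the genes that the rule allows are printed. Promoters came from RefSeq windows on GRCm38.p6, a different build from the matrices, and were joined by gene symbol. The 12 alternatives changed cell filters, doublets, the rule, the scaling or the minimum of UMIs. Python 3.11.15, numpy 2.4.6, scipy 1.17.1, pandas 2.3.3 and matplotlib 3.10.9 were used.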

Additional observations from a re-analysis of the deposited data

Results flagged for a closer look

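Several genes stood apart because their ratio between libraries lay on the other side of 1 in a neighbouring neutrophil stage, with intervals that did not hold 1 in either stage. These differences between stages were not tested. For IR over Control, immature neutrophils and Fcnb-high precursors went opposite ways for Cstdc4 (0.632 in immature neutrophils), Stfa2 (0.400), Stfa3 (0.347) and Lmna (4.11), the gene of the nuclear lamina protein lamin A. For IR+CBD over IR they did so for Cstdc4 (1.84), Stfa1 (2.11), Cstdc5 (3.10), Stfa2 (5.88) and Stfa3 (6.27). In precursors Stfa2 had 14.4, 33.6 and 3.61 CPM and Cstdc5 had 53.4, 345 and 79.1 CPM in Control, IR and IR+CBD, and the 10 richest IR precursors held 97.5% of the stefin UMIs, with 3172 of 4557 in 1 cell. The summed stefin level in precursors was 165, 934 and 259 CPM, but 216, 229 and 257 CPM without predicted doublets, so the opposite direction between stages was not kept for the sum in IR+CBD over IR. Without predicted doublets Stfa1 in precursors had 83.9, 55.2 and 134 CPM, Stfa2 19.5, 23.7 and 3.92 CPM, Stfa3 20.2, 13.1 and 6.91 CPM, Cstdc4 1.93, 11.3 and 9.45 CPM and Cstdc5 70.8, 102 and 94.2 CPM. Lmna had 4.55, 18.7 and 20.02 CPM in immature neutrophils, found in 13, 37 and 34 cells, and 0.969, 1.90 and 4.23 CPM without predicted doublets.

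Igha had an IR+CBD to IR ratio of 0.0298 in immature neutrophils, while it was higher in IR+CBD than in IR in precursors (0.157, 2.67 and 5.88 CPM in Control, IR and IR+CBD) and in Retnlg Cxcr2 neutrophils (0.699, 3.92 and 8.97 CPM). A single IR cell held 1846 of the 1871 Igha UMIs among IR immature neutrophils.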

How the results depend on the processing

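No paired analysis was possible because each condition had 1 library. Of 12 alternatives, 1 (no condition on Ly6g) was chosen after seeing the data. The ratio of shares ran from 1.27 to 1.45 for IR over Control and from 1.03 to 1.12 for IR+CBD over IR, and the lower bound of the latter was above 1 only with Ltf at least 10 UMIs (1.11, 1.00 to 1.23) and with no condition on Ly6g (1.12, 1.01 to 1.24). Counts of genes past 1.5-fold depended most on the minimum of UMIs: with 20 UMIs and with 500 UMIs they were 1379 and 143 higher and 1117 and 59 lower for IR over Control, 834 and 24 higher and 890 and 56 lower for IR+CBD over IR, and 1196 and 79 higher and 1005 and 34 lower for IR+CBD over Control. Without predicted doublets 152 genes were lower for IR over Control and 137 for IR+CBD over Control. With the rule on cells thinned to 5000 UMIs, 240 genes were higher for IR over Control, and 208 were higher and 555 lower for IR+CBD over Control. The mean of CPM over cells gave 394 lower for IR+CBD over Control. The remaining 186 values for these comparisons were labelled as not moved, but some still shifted widely. With the mean of CPM over cells, genes lower for IR over Control went from 295 to 419 and those lower for IR+CBD over IR from 234 to 339. The stefin A median for IR+CBD over IR, 1.35, became 0.91 without predicted doublets and 2.04 with Ltf at least 10. Among these values 1 changed sign: the stefin A median for IR over Control, -0.43, became 0.09 with the rule on thinned cells. Directions turned for 14 other values. The median log2 ratio of eosinophil and basophil markers became -0.27 (IR over Control), 1.42 (IR+CBD over IR) and 1.16 (IR+CBD over Control) without predicted doublets, and that of megakaryocyte markers for IR over Control became -1.38 with Ltf at least 10, -0.25 with no condition on Ly6g and -0.22 with the mean of CPM over cells. Among ratios, without predicted doublets Fosb became 1.19 for IR over Control, Igha 2.29 and Igkc 1.35 for IR+CBD over IR, and with Fcnb at most 4 Igha became 2.30 and Igkc 1.31. With the rule on thinned cells Cstdc4 became 1.20 for IR over Control, Oas1g 1.10 and Lmna 0.543 for IR+CBD over Control. Apart from the Igha and Igkc values, which rest on 1 cell, the cause was not tested. Genes under about 10 CPM rest on few UMIs, as their intervals show.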
